A study of Mus musculus with 18 samples.

Results

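The question here was whether MRTFB changed the same transcripts by the same amount in 2 mouse tumour cell lines, E0771 mammary tumour cells and B16F10 melanoma cells. The quantity described is the line difference: the log2 change of a gene between MRTFB and control cells in E0771 minus the same change in B16F10. It rests on 12 of the 18 RNA-seq libraries of the study, chosen by their labels: E0771 with MRTFB, E0771 with control vector, B16F10 with MRTFB and B16F10 with control vector, in 3 libraries each. Both lines are C57BL6 in origin. Every group carried a pRetrox vector, and every group, controls included, was treated with doxycycline at 500 ng/mL for 48 hours, which induces the transgene. Nothing in the labels tells if replicates of a group were grown separately, so p-values measure only the spread between libraries. The other 6 libraries, from cells with MRTFA, entered no comparison except 1 alternative fit.

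MRTFB, encoded by Mkl2 in the older symbols of the deposited table, is a coactivator of serum response factor (SRF). Monomeric actin binds MRTF proteins and holds them in the cytoplasm, and polymerisation of actin releases them to the nucleus. There they join SRF at CArG boxes in the promoters of genes for actins, actin-binding proteins and contractile proteins of muscle. Tumour cells of epithelial or melanocyte origin express some of these genes at a basal level, which can differ widely between lines.

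The 12 libraries held between 27607055 and 34173182 reads. Values below are scaled reads, that is reads divided by a size factor for the library, and effects are differences of log2(scaled reads + 1). Of the 18909 genes in the table, 14193 reached 10 scaled reads in 3 or more of the 12 libraries and were tested. Mammary epithelial markers summed to 6176 to 9538 scaled reads in E0771 MRTFB libraries and 5991 to 8083 in E0771 controls, almost all of it from Krt8, a keratin of luminal epithelium, without which the lowest library of each group held 373.7 and 289.4. In B16F10 they were at 59.09 to 113.3 with MRTFB and 92.59 to 137.6 in controls. Melanocyte markers summed to 6846 to 7385 in E0771 MRTFB libraries and 7485 to 8627 in E0771 controls, almost all of it from Met, a growth factor receptor that is not specific to melanocytes. In B16F10 they summed to 599800 to 752200 with MRTFB and 630800 to 805800 in controls, led by Tyrp1, a pigment enzyme. B16F10 thus carried the markers of its label broadly, and E0771 through few genes: of 9 mammary markers tested, 6 were at least 2-fold higher and 3 at least 2-fold lower in E0771 than in B16F10 controls. Cdh1, the epithelial cadherin, was low in E0771 at 4.03, 5.01 and 4.67 scaled reads in controls. Of the 15 immune cell markers, 6 were in the table, and their sum was at most 338.3 in any group.

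The transcript of the transgene's own gene was measured first. Mkl2 had 2056, 2206 and 2211 scaled reads in E0771 MRTFB libraries, against 1235, 1350 and 1446 in E0771 controls. In B16F10 it had 1964, 1738 and 1955 with MRTFB, against 1290, 1333 and 1881 in controls. The groups were separate in E0771 and overlapped in B16F10, where control replicate 3 lay within the range of the MRTFB libraries. The log2 effect was 0.68 ± 0.13 (SE) in E0771 and 0.35 ± 0.13 in B16F10. Neither passed the test (adjusted p = 0.127 and 0.507). With replicate number as a block within each line the E0771 effect passed (adjusted p = 0.0284) and the B16F10 effect did not (0.109). Without the B16F10 replicate 3 pair, the Mkl2 effect in B16F10 was 0.49 (adjusted p with the block 0.0246). Leaving out this pair was decided after the data were seen, here and below, so p-values without it are no separate support. The line difference in Mkl2 itself was 0.34 ± 0.18 (adjusted p = 0.998) with a 95% interval of -0.06 to 0.73. Mkl1, which encodes the related MRTFA, and Srf differed between lines in effect by 0.09 ± 0.26 and 0.15 ± 0.42.

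Few line differences passed the test in the main fit, which ignores the replicate number, and the count changed with the fit, as given below. With p-values adjusted by Benjamini-Hochberg and a threshold of 0.05, the line difference was called for 3 of 14193 genes (0.0211%). Optc and Jup had the higher effect in E0771 (0.0141% of genes tested) and Slc7a2 the higher effect in B16F10 (0.00705%). The MRTFB effect itself was called for 4 genes in E0771, all higher with MRTFB (0.0282%), and for 11 in B16F10 (0.0775%), 4 higher (0.0282%) and 7 lower (0.0493%). By contrast the 2 control groups differed for 10138 genes (71.4%), 4819 higher and 5319 lower in E0771. The quartiles of the line difference over all genes were -0.15 and 0.16 in log2. A difference of at least 2-fold was found for 360 genes higher and 226 genes lower in E0771, with no regard to the test.

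Same-numbered MRTFB and control libraries of a line deviated together from their group means, so the replicate number was also fitted as a block within each line. This took the count to 34 genes for the line difference (0.24%), 25 higher (0.176%) and 9 lower (0.0634%) in E0771. It took the MRTFB effect to 33 genes in E0771 (0.233%), 30 higher (0.211%) and 3 lower (0.0211%), and to 220 in B16F10 (1.55%), 93 higher (0.655%) and 127 lower (0.895%). All 3 genes called without the block were among the 34. B16F10 replicate 3 stood apart from replicates 1 and 2 in both of its libraries, in contractile genes such as Actg2 whose values follow. Without that pair the line difference was called for 31 genes without the block (0.221%) and for 164 with it (1.17%). The 31 included 9 of the 34 genes and the 164 included 33, all that were still tested, and Slc7a2 was the gene that no longer met the minimum level.

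**Figure D1:**
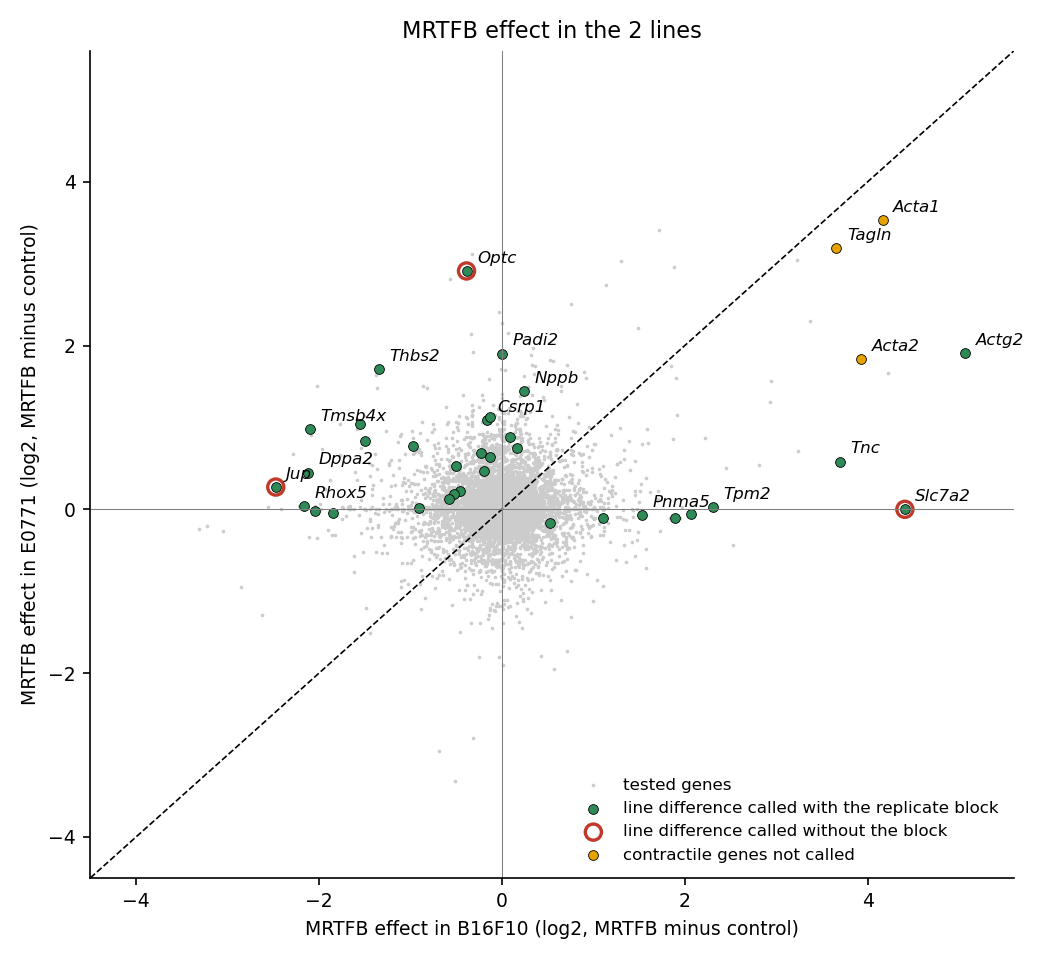
MRTFB effect in E0771 (y axis) against the MRTFB effect in B16F10 (x axis), both in log2, for the 14193 genes tested. Points on the dashed line changed equally in both lines. Green points are the 34 genes whose line difference was called with the replicate block, red rings the 3 called without it, and orange points 3 contractile genes with effects above 1 in both lines whose line difference was not called.

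Of the 34 genes, 22 changed more in B16F10 and 12 changed more in E0771. The 25 genes with a positive line difference fell into 13 that went down in B16F10 by more than they changed in E0771, and 12 that went up in E0771 by more than they changed in B16F10. All 9 genes with a negative line difference went up more in B16F10. Over all genes tested, the effects in the 2 lines, which share no library, had a Pearson correlation of 0.086 and a Spearman correlation of -0.002. This is a description across genes, which are not independent replicates, and most genes had an effect near 0 in both lines.

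Optc (GRCm38 chr1:133897199-133907999, minus strand, in GENCODE M21) encodes opticin, a small leucine-rich proteoglycan of the extracellular matrix. It had 12.4, 12.2 and 17.6 scaled reads in E0771 MRTFB libraries, against 1.007, 1.001 and 0.9344 in E0771 controls, where each library held a single read. B16F10 libraries had 22.9, 21.8 and 23.1 with MRTFB, against 27.9, 33.1 and 28.6 in controls. The groups were separate in both lines, in opposite directions. The E0771 effect was 2.91 ± 0.23, and the B16F10 effect of -0.39 ± 0.23 was not called (adjusted p = 0.84, and 0.485 with the block). The E0771 values correspond to a 14.4-fold ratio with a counting interval of 4.57 to 72.6, since the controls held 3 reads in all. The line difference was 3.30 ± 0.33 (SE; adjusted p = 0.00492, and 0.0192 with the block), and it was called in all 12 fits that left out 1 library. With MRTFB the E0771 level was still below every B16F10 library. Bulk RNA cannot tell apart a change in the share of cells with a transcript from a change in its amount per cell.

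Slc7a2 (chr8:40862396-40922308, plus strand), which encodes a transporter of cationic amino acids such as arginine, was the opposite case. It was at 0 reads in all E0771 libraries, with MRTFB and without, which allows up to 3 reads in a library. The B16F10 levels were 29.5, 31.1 and 18.04 scaled reads with MRTFB, against 0, 0 and 0.955 in controls. A ratio for B16F10 rests on 1 control read and was 81.8, with a counting interval of 14.3 to 3270. The fitted line difference was -4.41 ± 0.47 (adjusted p = 0.00492, 0.02 with the block, 0.0351 in voom and 1 in edgeR). DESeq2 gave no adjusted p. The gene met the minimum level only through the B16F10 MRTFB libraries, the group in which it was high, so its p is given for completeness and supports nothing here.

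Jup (chr11:100368958-100397763, minus strand) encodes plakoglobin, a plaque protein of desmosomes and adherens junctions. It had 673, 716 and 617 scaled reads in E0771 MRTFB libraries and 478, 751 and 470 in E0771 controls, which overlapped. Levels in B16F10 were 116, 142 and 184 with MRTFB, against 869, 1075 and 567 in controls, and every MRTFB library was below every control. The effects differed between lines by 2.74 ± 0.35 (adjusted p = 0.0216, and 0.0192 with the block), made of an E0771 effect of 0.27 ± 0.25 and a B16F10 effect of -2.47 ± 0.25. It was called in only 3 of the 12 fits that left out 1 library, and the B16F10 effect in all 12. Jup was expressed at a comparable level in both control groups, whereas Optc differed between them and Slc7a2 was nearly absent from both.

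**Figure D2:**
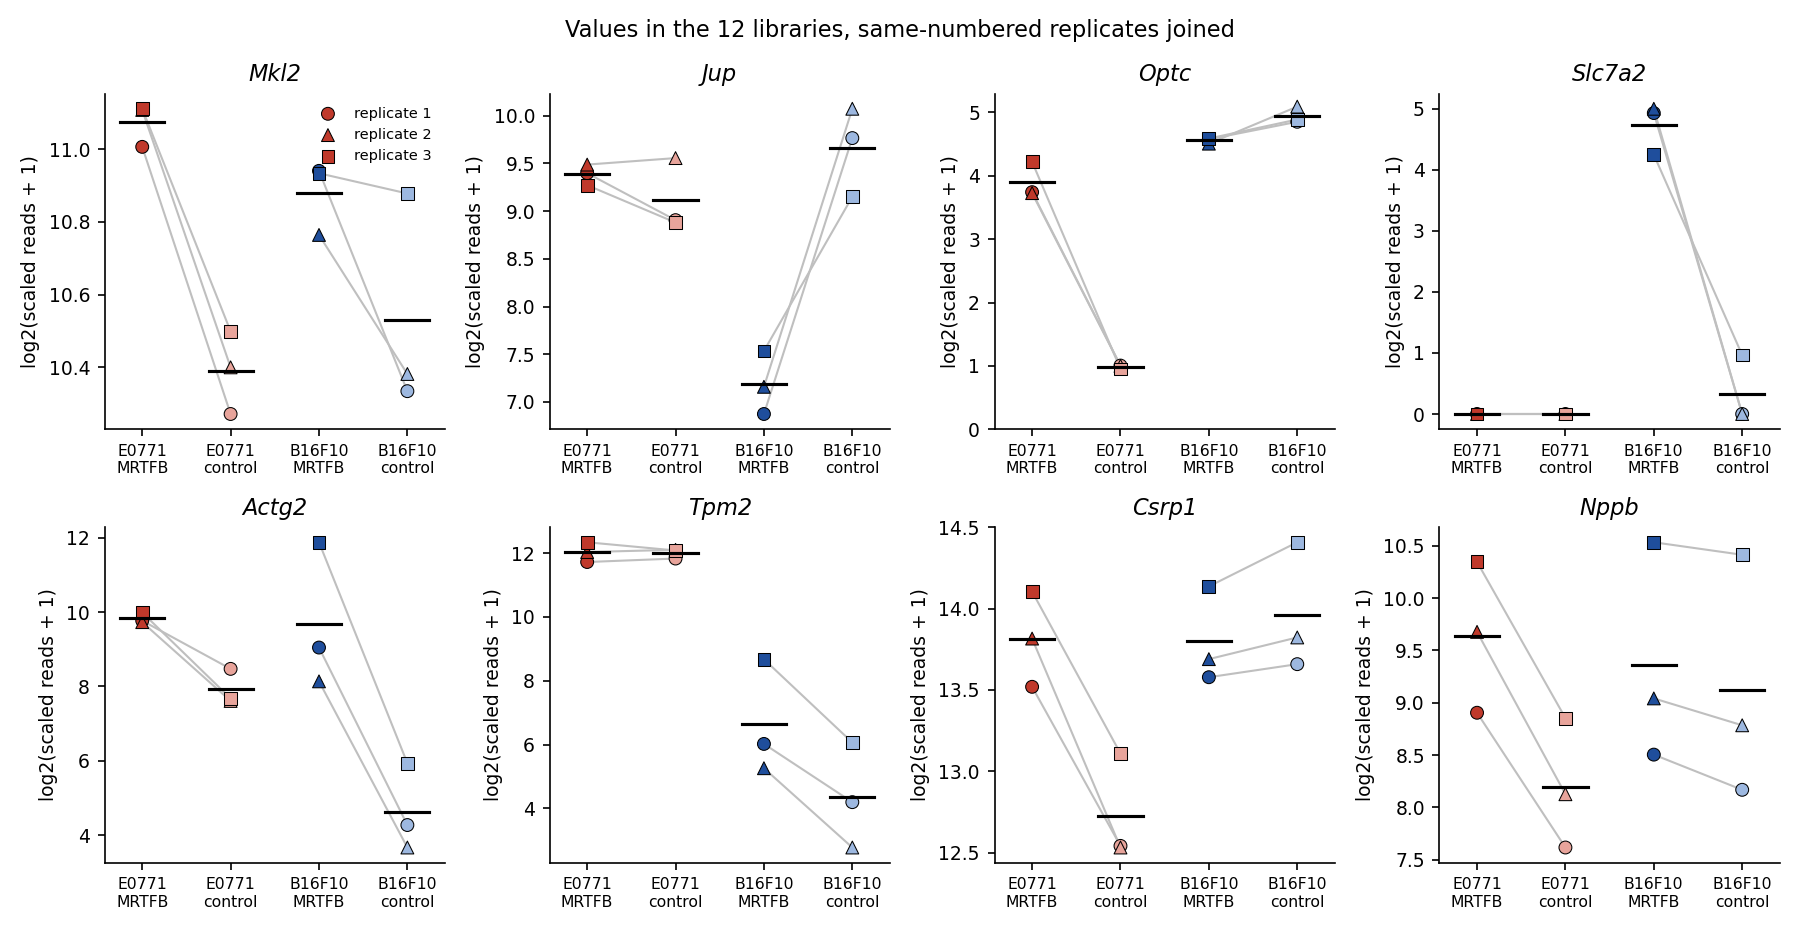
Level of 8 genes in each of the 12 libraries as log2(scaled reads + 1), with axis ranges that differ between panels. Symbols mark the replicate number, lines join same-numbered MRTFB and control libraries, and bars are group means. Jup fell in B16F10 in all 3 pairs, Optc rose in E0771 in all 3 pairs, and in Actg2, Tpm2 and Nppb replicate 3 of B16F10 lay above replicates 1 and 2 with MRTFB and in controls alike.

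Several further genes fell in B16F10 with MRTFB and had no called effect in E0771. Rhox5, a homeobox gene of the reproductive cluster on the X chromosome, had 10030, 10160 and 9660 scaled reads in E0771 MRTFB libraries, against 10720, 9346 and 9142 in controls. For B16F10 the values were 1041, 1028 and 981 with MRTFB, against 5784, 6682 and 2424 in controls. Every B16F10 MRTFB library was below every control, and control replicate 3 was the lowest control. E0771 minus B16F10, the difference was 2.19 ± 0.38, and it was called with the block (adjusted p = 0.0253) and not without it (0.152). Without the B16F10 replicate 3 pair, which held that lowest control, the line difference was 2.62 (adjusted p = 3.3e-05 without the block). Leaving out the control nearest the MRTFB values widens the difference, so this p is no separate support.

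Dppa2, known for its expression in pluripotent cells, behaved likewise. It had 210, 186 and 189 scaled reads in E0771 MRTFB libraries and 148, 97.1 and 201 in E0771 controls, which overlapped. Among B16F10 libraries it had 34.3, 47.6 and 44.1 with MRTFB, against 190, 239 and 138 in controls, which were separate. Its line difference was 2.57 ± 0.38 (adjusted p = 0.0676, and 0.0192 with the block). Rhox2d, of the same X-linked cluster as Rhox5, had a line difference of 1.70 ± 0.37 (adjusted p = 0.332, and 0.0753 with the block). The B16F10 effect was called for Rhox5, Dppa2 and Rhox2d without the block (-2.16, -2.12 and -1.66; adjusted p = 0.0128, 0.0128 and 0.05). For Rhox2d that p lay just under the threshold.

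Tmsb4x encodes thymosin beta 4, which sequesters actin monomers. It had 5325, 4979 and 5063 scaled reads in E0771 MRTFB libraries, against 3366, 2097 and 2501 in E0771 controls. Its B16F10 values were 88.6, 116 and 342 with MRTFB, against 669, 561 and 757 in controls. The groups were separate in each line and in opposite directions. The line difference was 3.08 ± 0.53 (adjusted p = 0.152, and 0.0192 with the block). Within the lines, the B16F10 effect of -2.10 was called with the block (adjusted p = 0.0108) and the E0771 effect of 0.98 was not (0.308). Reads of Tmsb4x may be shared with near-identical copies in the genome, so its level is uncertain.

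Thbs2, which encodes a matricellular thrombospondin, also had separate groups in opposite directions. It had 23.6, 24.5 and 15.4 scaled reads in E0771 MRTFB libraries, against 6.04, 10.0 and 2.80 in E0771 controls. In B16F10 it had 33.4, 24.9 and 49.1 with MRTFB, against 89.5, 97.4 and 81.1 in controls. This gave a line difference of 3.06 ± 0.53 (adjusted p = 0.152, and 0.0213 with the block), and neither line's effect was called (adjusted p with the block 0.069 in E0771 and 0.0641 in B16F10). Cdh1 showed the same arrangement at 13.5, 9.41 and 7.72 in E0771 MRTFB libraries against its E0771 control values given above, and at 17.2, 18.6 and 14.03 in B16F10 MRTFB libraries against 74.1, 66.2 and 27.7 in B16F10 controls. Its line difference of 2.57 ± 0.50 was not called with or without the block (adjusted p = 0.0603 and 0.206). Without the B16F10 replicate 3 pair, left out after seeing the data and holding the lowest control, it was 2.89 (adjusted p = 0.0193).

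Other genes called lower with MRTFB in B16F10 were Nckap1l, a blood-cell subunit of the WAVE complex that drives actin branching, B3gnt3, a glycosyltransferase, and Fbxo17, an F-box protein. Their effects were -0.27, -0.04 and 0.02 in E0771 and -3.05, -1.85 and -1.74 in B16F10. Of the 3, B3gnt3 had a line difference that was called with the block (1.81 ± 0.36, adjusted p = 0.02). Nckap1l (2.78 ± 0.56) and Fbxo17 (1.75 ± 0.34) had adjusted p of 0.0933 and 0.11 with the block. The B16F10 replicate 3 pair held the lowest control of both genes. Once it was left out, after seeing the data, the adjusted p was 0.0063 and 0.0027 without the block.

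In the other direction, Pnma5, a member of the paraneoplastic antigen family, rose in B16F10. It had 5688, 6245 and 5352 scaled reads in E0771 MRTFB libraries and 6322, 6228 and 5567 in controls, which overlapped. B16F10 libraries had 242, 204 and 291 with MRTFB, against 75.03, 65.2 and 117 in controls, which did not. Its effects differed by -1.60 ± 0.27 (adjusted p = 0.142, and 0.00557 with the block, the lowest among the 34). Nr1h3, which encodes the sterol-sensing receptor LXR alpha, had a line difference of -2.13 ± 0.48 (adjusted p = 0.393, and 0.0192 with the block). Its 6 E0771 libraries ranged over 276 to 356 scaled reads with MRTFB and 269 to 399 in controls. It stood at 9.53, 9.32 and 18.04 in B16F10 MRTFB libraries, against 1.92, 0.974 and 3.82 in B16F10 controls. Ly75, an endocytic receptor, had an effect of 0.41 in E0771 (adjusted p = 0.664) and rose in B16F10 (0.76, adjusted p = 0.0294). Its line difference of -0.35 ± 0.16 was not called.

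The 4 genes called in E0771 (Optc, Padi2, Snx18 and Mdfi) were at 14.02 scaled reads or fewer in every E0771 control. Padi2, an enzyme that converts arginine to citrulline in proteins, had 31.5, 65.9 and 50.8 scaled reads in E0771 MRTFB libraries, against 10.1, 12.02 and 14.02 in controls. The B16F10 levels were 1654, 1750 and 1255 with MRTFB and 1731, 1680 and 1251 in controls. The effects differed between lines by 1.90 ± 0.36 (adjusted p = 0.206, and 0.0192 with the block). Snx18, a sorting nexin of endosomes, had 25 reads over the E0771 MRTFB libraries against 3 over the controls, a ratio of 8.98 with a counting interval of 2.74 to 46.5. Mdfi, an inhibitor of MyoD family factors, had 8 reads against 0, which is at least 2.9-fold higher when 3 reads are taken for the control group. In B16F10, Snx18 had 5609 reads over the MRTFB and 5913 over the control libraries, and Mdfi 2148 and 1769, and their line differences were not called with the block (adjusted p = 0.0727 and 0.107). The fit takes 1 spread per gene from both lines, so that a gene abundant in B16F10 lends its small spread to a handful of E0771 reads.

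Contractile genes are classic targets of MRTF and SRF, and some of them rose in both lines. With the block, 5 of 14193 genes tested were called in both lines, all higher with MRTFB in each. These 5 are 15.2% of the E0771 calls, beside 1.55% of all genes tested that were called in B16F10. Of the B16F10 calls they are 2.27%, beside 0.233% of all genes tested that were called in E0771. They were Tagln, Acta1, Actg2, Myl9 and Vcl. Tagln, which encodes the actin-binding protein transgelin, had 2996, 4127 and 3194 scaled reads in E0771 MRTFB libraries, against 484, 396 and 268 in E0771 controls. Levels in B16F10 were 630, 458 and 4709 with MRTFB, against 55.8, 43.8 and 265 in controls. The groups were separate in both lines, and the effects were 3.19 in E0771 and 3.66 in B16F10, with blocked adjusted p of 0.000321 and 0.000143. E0771 minus B16F10, the difference was -0.47 ± 1.11 (adjusted p = 0.998, and 0.502 with the block).

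Acta1, skeletal alpha-actin, had 180, 365 and 610 scaled reads in E0771 MRTFB libraries, against 33.2, 29.0 and 24.3 in E0771 controls. For B16F10 the values were 132, 59.0 and 596 with MRTFB, against 4.81, 6.82 and 17.2 in controls. The effects of 3.54 and 4.16 were called with the block (adjusted p = 0.0217 and 0.00466), and the line difference was -0.63 ± 1.01. Myl9, a myosin regulatory light chain, rose by 1.61 in E0771 and 0.92 in B16F10 (adjusted p with the block 0.000321 and 0.00441), and the line difference was 0.69 ± 0.84 (0.0974 with the block). Vcl, the focal adhesion protein vinculin, rose by 0.61 and 0.40 (0.0217 and 0.0408), with a line difference of 0.21 ± 0.33. None of these 4 line differences was called. In the fit without the block the 95% interval for Tagln, -2.88 to 1.95, includes large differences in both directions. With the block the standard error of the Tagln line difference was 0.27 in place of 1.11.

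Actg2, smooth muscle gamma-actin (chr6:83512905-83536265, minus strand), was the member of the smooth muscle list with a called line difference. It had 872, 849 and 1016 scaled reads in E0771 MRTFB libraries, against 354, 194 and 204 in E0771 controls. Among B16F10 libraries it had 528, 281 and 3772 with MRTFB, against 18.3, 11.7 and 60.1 in controls. Its groups were separate in both lines. The B16F10 MRTFB level was below every E0771 MRTFB library in replicates 1 and 2 and above them in replicate 3, and every B16F10 control was below every E0771 control. The effects were 1.91 in E0771 and 5.07 in B16F10. The line difference was -3.16 ± 1.11 (adjusted p = 0.832, and 0.0192 with the block, where the standard error was 0.39). Acta2, smooth muscle alpha-actin, had 59670, 70460 and 79720 scaled reads in E0771 MRTFB libraries, against 23960, 16570 and 18720 in E0771 controls. Its B16F10 values were 3856, 2146 and 28020 with MRTFB, against 463, 176 and 798 in controls. Its effects were 1.83 and 3.93, and its line difference of -2.10 ± 1.06 was not called with the block (adjusted p = 0.119).

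**Figure D3:**
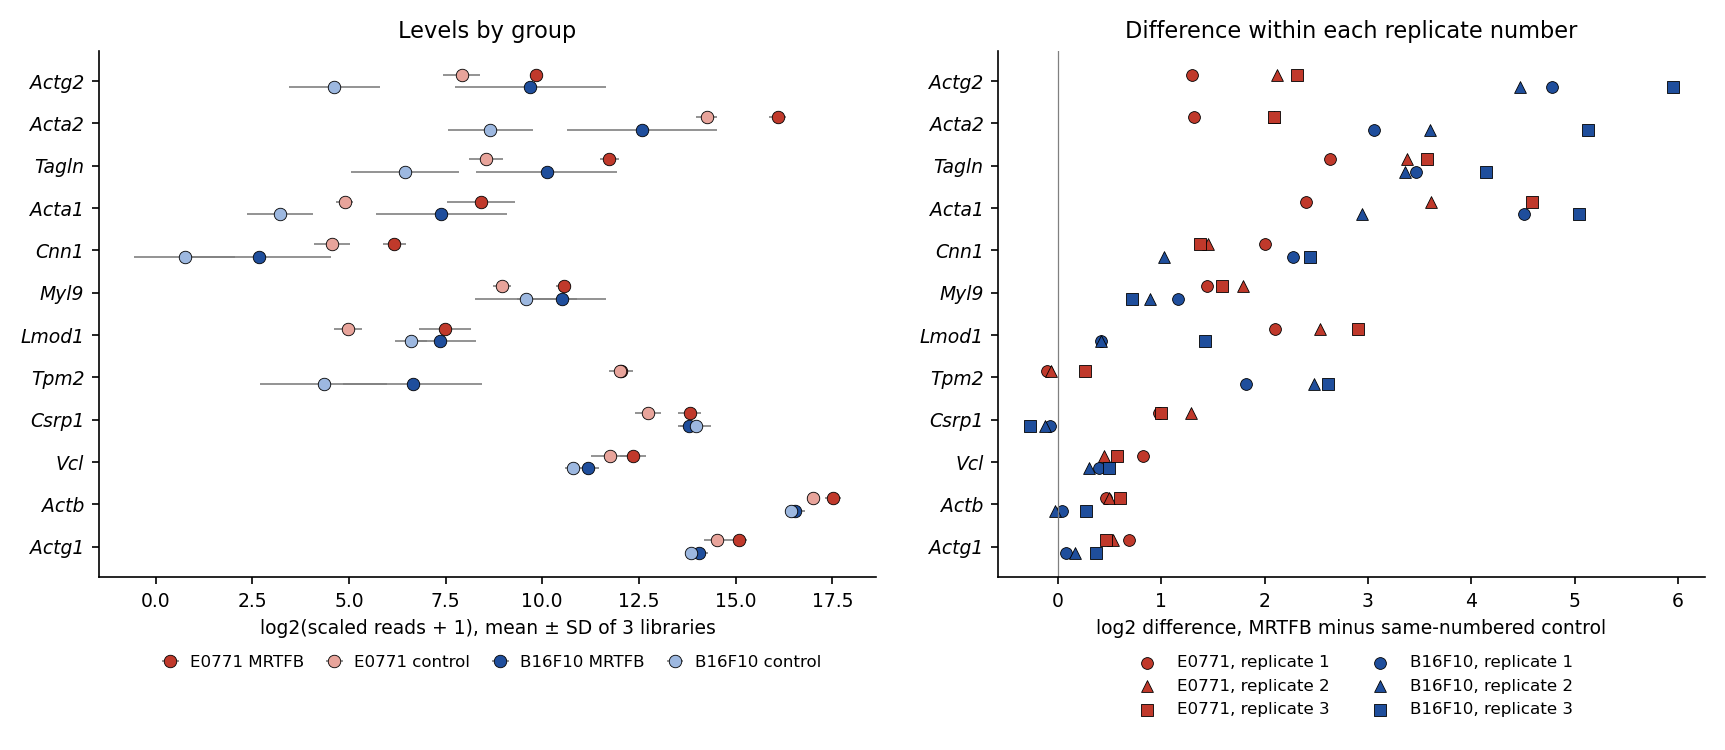
Contractile and actin genes. Left, mean log2(scaled reads + 1) of each group with bars of 1 SD over 3 libraries. Right, the log2 difference between each MRTFB library and the control library of the same number. For Actg2, Acta2 and Tpm2 all 3 B16F10 pairs lie above all 3 E0771 pairs. For Lmod1, Csrp1, Myl9, Actb and Actg1 all 3 lie below. For Tagln, Acta1, Cnn1 and Vcl they interleave.

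Tpm2 and Csrp1, 2 genes of the actin cytoskeleton list, had called line differences of opposite sign with the block, and Lmod1 of the smooth muscle list was not called in the blocked fit of all 12 libraries. Tpm2, beta-tropomyosin, was abundant in E0771 at 3367, 4183 and 5172 scaled reads with MRTFB and 3632, 4391 and 4326 in controls. In B16F10 it had 63.9, 37.3 and 407 with MRTFB, against 17.3, 5.84 and 65.9 in controls. The effect was 0.03 in E0771 and 2.31 in B16F10. The line difference of -2.28 ± 1.16 was called with the block (standard error 0.21 and adjusted p = 0.0118 in that fit). Lmod1, leiomodin of smooth muscle, had 128, 145 and 306 in E0771 MRTFB libraries, against 29.2, 24.0 and 40.2 in E0771 controls, and 141, 94.2 and 330 in B16F10 MRTFB libraries, against 105, 70.1 and 122 in B16F10 controls. This gave a difference between lines of 1.76 ± 0.63 (adjusted p with the block 0.0785, and 0.0284 with the block and without the B16F10 replicate 3 pair). Csrp1, a LIM protein of actin bundles, had 11740, 14420 and 17620 in E0771 MRTFB libraries, against 5959, 5918 and 8835 in E0771 controls. B16F10 libraries had 12230, 13210 and 18010 with MRTFB and 12930, 14490 and 21740 in controls, which overlapped. Its line difference was 1.25 ± 0.32 (adjusted p = 0.578, 0.00562 with the block, and 0.0415 in DESeq2).

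The actin-regulating genes Pdlim5 and Lima1, an actin-bundling LIM protein, and the natriuretic peptide gene Nppb rose in E0771 with the block by 0.74, 0.46 and 1.44 (adjusted p = 0.00039, 0.0217 and 0.000321). Their B16F10 effects of 0.17, -0.20 and 0.24 were not called, and their line differences of 0.58, 0.66 and 1.21 were called with the block (adjusted p = 0.0192, 0.0192 and 0.0166). The cytoplasmic actins Actb and Actg1 were separate between groups in E0771 and overlapped in B16F10. Their effects were 0.52 and 0.56 in E0771 and 0.10 and 0.20 in B16F10, and with the block only Actg1 in E0771 was called (adjusted p = 0.0227). Their line differences of 0.42 ± 0.20 and 0.36 ± 0.23 were not called.

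The smooth muscle list had 19 tested members with a median effect of 0.98 in E0771 and 0.88 in B16F10, beside -0.005 and 0 over all genes tested. With the block, 5 members rose in E0771 and 7 in B16F10, and the line difference was called for Actg2, beside 0.211%, 0.655% and 0.24% of all genes tested. Its median line difference was 0.06, with 10 of 19 members above 0. The list of actin cytoskeleton genes had 31 tested members with a median effect of 0.25 in E0771 and 0.11 in B16F10. With the block, 5 members rose in E0771, and 2 rose and 1 fell in B16F10, beside 0.211%, 0.655% and 0.895% of all genes tested. Csrp1, Pdlim5 and Lima1 were called with a higher effect in E0771 and Tpm2 with a higher effect in B16F10. Over all genes tested these shares were 0.176% and 0.0634%. The striated muscle list had 9 tested members of 20 and a median effect of 0.39 in E0771 and 0.40 in B16F10. With the block, Nppb was the 1 called line difference of this list, beside 0.24% of all genes tested. Its median line difference was -0.41, with 3 of 9 members above 0, and that of the cytoskeleton list was 0.24, with 23 of 31 above 0. In B16F10 the summary depended on replicate: the median difference of the cytoskeleton members was 0.01, 0.02 and 0.29 in pairs 1 to 3, against 0.31, 0.27 and 0.37 in E0771.

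The CArG box, the binding site of SRF, was searched on both strands of RefSeq promoters of GRCm38.p6, each from 250 bases before to 50 after the start. Of the cytoskeleton genes, 27 of 31 had a promoter in the table and 7 of them held a box in at least 1 promoter (25.9%). So did 169 of 10416 tested genes with a promoter (1.62%). The list was written from general knowledge of MRTF and SRF targets, so its share is no finding of these data. Of the 34 genes with a called line difference, 29 had a promoter and 1 held a box (3.45%), which was Lima1. Shown here are Acta1 and Myl9, which rose in both lines, and Lima1, which was called in E0771 and differed between lines. Capitals mark the box, at -73 for Acta1, -161 for Myl9 and -47 for Lima1 from the start.
Acta1 (chr8:123894726-123895025, minus strand): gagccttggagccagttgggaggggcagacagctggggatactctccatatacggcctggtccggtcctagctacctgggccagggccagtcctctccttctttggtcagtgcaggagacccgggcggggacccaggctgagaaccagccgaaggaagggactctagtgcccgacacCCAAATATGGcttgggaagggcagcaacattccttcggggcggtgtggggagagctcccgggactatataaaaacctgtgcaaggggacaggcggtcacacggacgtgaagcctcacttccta
Myl9 (chr2:156775214-156775513, plus strand): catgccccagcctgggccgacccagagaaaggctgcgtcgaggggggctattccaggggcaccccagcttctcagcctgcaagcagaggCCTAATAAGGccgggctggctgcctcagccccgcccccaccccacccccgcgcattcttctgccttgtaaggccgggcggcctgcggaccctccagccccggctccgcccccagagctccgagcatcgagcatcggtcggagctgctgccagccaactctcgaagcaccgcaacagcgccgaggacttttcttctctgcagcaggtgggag
Lima1 (chr15:99820100-99820399, minus strand): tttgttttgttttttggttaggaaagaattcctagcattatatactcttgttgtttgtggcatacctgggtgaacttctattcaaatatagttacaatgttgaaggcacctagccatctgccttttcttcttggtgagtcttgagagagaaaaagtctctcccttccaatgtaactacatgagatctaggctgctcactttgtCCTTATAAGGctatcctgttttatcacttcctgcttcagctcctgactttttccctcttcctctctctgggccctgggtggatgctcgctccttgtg
A match is a description of the letters, and promoters were not matched for Actg2 and Tagln.

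Matrix genes were among those that parted the lines. Tnc, the matrix glycoprotein tenascin-C, had 1076, 1000 and 1469 scaled reads in E0771 MRTFB libraries, against 761, 697 and 888 in E0771 controls. The B16F10 levels were 116, 41.4 and 1171 with MRTFB, against 13.5, 2.92 and 45.8 in controls. The B16F10 groups overlapped between replicates of different number, and each pair rose. The effects were 0.58 in E0771 and 3.70 in B16F10. The line difference of -3.12 ± 1.44 was called with the block (adjusted p = 0.0192, and 0.998 without it). With the block its standard error was 0.36. Timp1, an inhibitor of matrix metalloproteinases, had a line difference of -1.22 ± 0.51 (with the block, standard error 0.15 and adjusted p 0.0192). Its effects were -0.11 in E0771 and 1.11 in B16F10. Of 22 tested matrix genes, the line difference was called with the block for Thbs2, Tnc and Timp1, beside 0.24% of all genes tested, and the last 2 were named after their values were seen.

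Among targets of the coactivators YAP and TAZ, which share several genes with MRTF, Cyr61 and F3 had called line differences with the block. This was of 20 tested, beside 0.24% of all genes tested. Cyr61, a matricellular protein, had 10930, 13090 and 16320 scaled reads in E0771 MRTFB libraries, against 5498, 7293 and 9250 in E0771 controls. Levels in B16F10 were 1835, 2015 and 4838 with MRTFB and 1979, 1998 and 3758 in controls, which overlapped. Its effects differed by 0.80 ± 0.50 in the fit without the block (adjusted p = 0.998). With the block the standard error was 0.12 and the adjusted p 0.0468. F3, tissue factor of blood clotting, had 2171, 2174 and 2316 in E0771 MRTFB libraries, against 1389, 1325 and 1560 in E0771 controls, and overlapped in B16F10. This gave a difference between lines of 0.77 ± 0.15 (adjusted p = 0.206, 0.04 with the block, and 0.00514 in DESeq2). Ctgf, the sister gene of Cyr61, had effects of 1.03 in E0771 and 0.60 in B16F10 and a line difference of 0.43 ± 0.80, which was not called.

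3 enzymes of sterol synthesis, named after their values were seen, fell with MRTFB in B16F10 with the block: Msmo1 by 0.58, Hmgcs1 by 0.52 and Fdps by 0.46 (adjusted p = 0.00335, 0.00794 and 0.0151). Of all genes tested, 0.895% were called lower in B16F10 with the block, and 0.24% had a called line difference. No list of sterol synthesis genes was counted, so these are 3 selected genes and no result for the pathway. Msmo1 had 4646, 3992 and 3163 scaled reads in E0771 MRTFB libraries, against 4305, 3490 and 3006 in E0771 controls, and 2794, 2654 and 2867 in B16F10 MRTFB libraries, against 4057, 4321 and 4054 in B16F10 controls. The E0771 groups overlapped and the B16F10 groups were separate. The line differences of Msmo1, Hmgcs1 and Fdps were 0.71 ± 0.20, 0.70 ± 0.28 and 0.69 ± 0.29 (adjusted p with the block 0.0192, 0.0192 and 0.02). None was called without the block.

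The interferon response list shared a sign over its members, and no line difference was called in any fit of all 12 libraries named here. All 24 members had a line difference above 0, with a median of 0.66, beside -0.009 over all genes tested. The median effect was 0.13 in E0771 and -0.47 in B16F10. The list's level moved with replicate, as given below, so 24 shared signs are not 24 separate observations. By limma 0 of 24 were called and 0 had an unadjusted p under 0.05, and edgeR, DESeq2, voom and the blocked fit each called 0. Without the B16F10 replicate 3 pair the blocked fit called 4, beside 1.17% of all genes tested in that fit. Within B16F10, Stat2, a signal transducer of interferon, had an effect of -0.48 that was called with the block (adjusted p = 0.0479), and its E0771 effect was 0.00. In E0771 these genes varied more between replicates than between MRTFB and control. In B16F10 their median level in MRTFB replicates 1 and 2 was below every control library. Their median log2 level was 6.69, 5.97 and 8.69 in E0771 MRTFB libraries, against 6.48, 5.42 and 8.19 in E0771 controls, and 8.23, 7.79 and 9.65 in B16F10 MRTFB libraries, against 8.99, 8.76 and 9.51 in B16F10 controls. Replicate 3 was the highest in each of the 4 groups. The median difference within pairs 1 to 3 was -0.11, 0.24 and 0.31 in E0771 and -0.79, -0.70 and 0.13 in B16F10, so pair 3 of B16F10 did not share the sign of the other 2. Leaving out that pair widens the line difference of this list, so the 4 calls without it are no separate support.

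Over all 15 gene lists, which held 247 tested genes, limma called 0 line differences, edgeR and voom 0, DESeq2 3 and the blocked fit 11, and 19 had an unadjusted p under 0.05 (7.69%). Over all genes the unadjusted p was under 0.05 for 688 (4.85%), limma called 0.0211%, edgeR 2 (0.0141%), voom 4 (0.0282%), DESeq2 29 (0.231%) and the blocked fit 0.24%. Median line differences were 0.07 for immediate early genes, 0.07 for YAP and TAZ targets, 0.05 for integrins and focal adhesion, 0.18 for matrix and 0.09 for SRF and its cofactors. They were -0.08 for mesenchymal transition genes, -0.02 for cell cycle genes, -0.03 for melanocyte markers, 0.83 for 9 mammary markers, -0.21 for 4 immune markers and -0.05 for 7 markers of endothelium and fibroblasts. The median over all genes tested was -0.009. In none of these 6 last lists was a line difference called with the block.

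The line difference was then set against the level of each gene in the control groups. The spread of the line difference was widest in weakly expressed genes. Among 2019 genes with a mean control level under 4 in log2, the interquartile range was 0.83 and 14.7% differed at least 2-fold, with a median standard error of 0.58. Among 5784 genes with a level over 10, the interquartile range was 0.19 and 0.138% differed at least 2-fold, with a median standard error of 0.14. Between 4 and 7 the range was 0.64 over 2712 genes, and between 7 and 10 it was 0.28 over 3678 genes. With the block, 2, 8, 12 and 12 genes were called in these bins, from the lowest level to the highest.

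Genes that were much higher in one line at baseline carried most of the negative calls. Of the 9 genes whose effect was higher in B16F10 with the block, 8 were over 4-fold higher in E0771 controls, as were 8.23% of all genes tested, and Slc7a2, silent in both, was the exception. These 8 included Tpm2 (baseline difference 7.66 in log2, E0771 minus B16F10), Nr1h3 (6.76), Pnma5 (6.16), Tnc (5.81), Timp1 (3.40) and Actg2 (3.30). Of the 25 genes whose effect was higher in E0771, 7 were over 4-fold lower in E0771 controls, as were 14.2% of all genes tested, among them Padi2 (-6.89), Optc (-3.96) and Thbs2 (-3.76). Jup (-0.55), Dppa2 (-0.37), F3 (-0.40) and Msmo1 (-0.22) were within 2-fold. In all, 23 of the 34 differed at least 2-fold between controls, 14 higher in E0771 and 9 higher in B16F10, as did 39.1% of all genes tested (16% and 23.1%). At least 10 scaled reads in every control library of both lines were found for 26 of the 34 (76.5%), close to 76.7% of all genes tested.

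Over all genes the median line difference ran from 0.13 in genes more than 4-fold lower in E0771 controls (2015 genes) through 0.05, -0.02 and -0.04 to -0.07 in genes more than 4-fold higher (1168 genes). The same control libraries enter the baseline and the line difference with opposite signs and so share their error, and no correlation or test of the relation was made. Actg2 and Acta2 can be read without that slope in the MRTFB libraries. Their control levels in B16F10 were below every E0771 control, and with MRTFB both genes were below every E0771 MRTFB library in B16F10 replicates 1 and 2. Replicate 3 of B16F10 lay above every E0771 MRTFB library for Actg2 and below every one for Acta2.

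**Figure D4:**
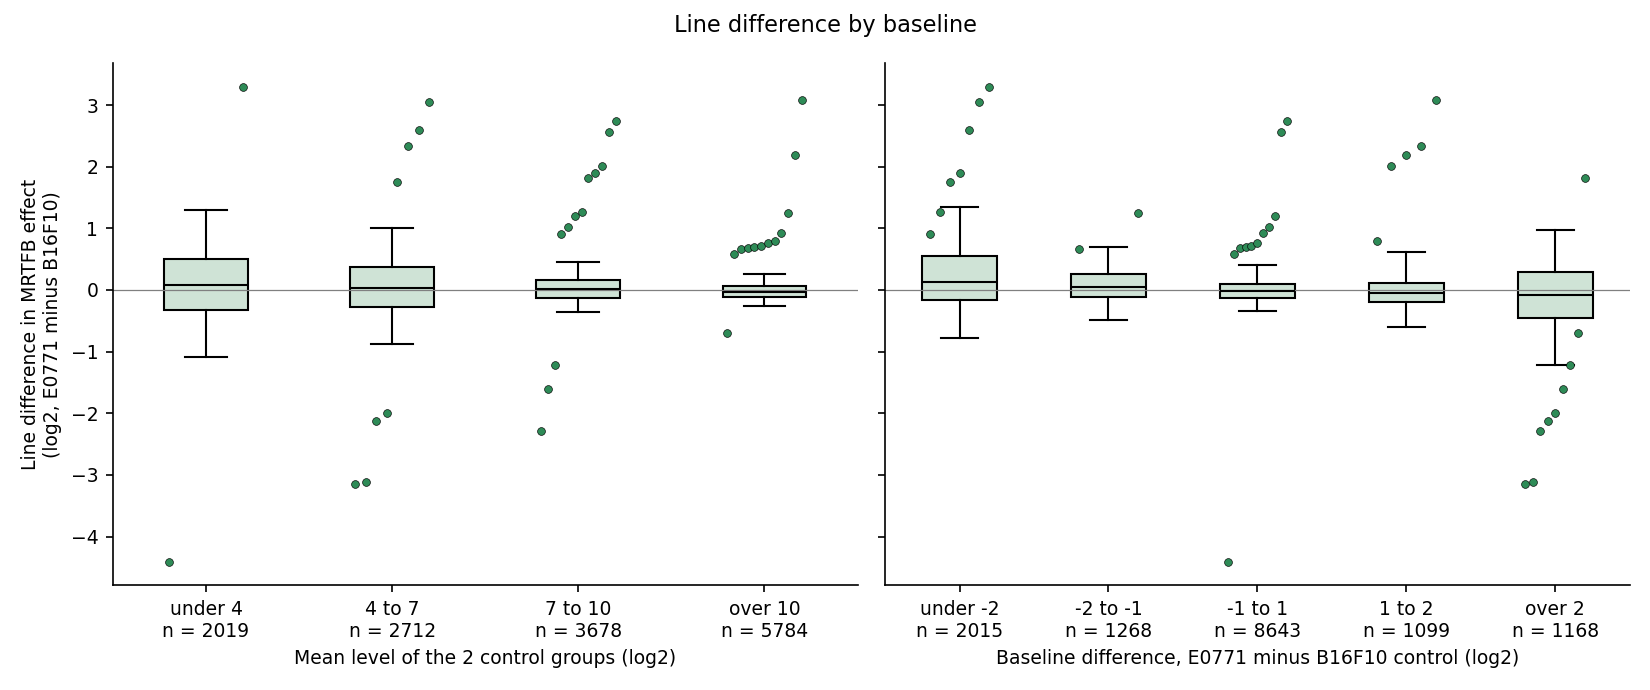
Line difference in the MRTFB effect (log2, E0771 minus B16F10) by mean level of the 2 control groups (left) and by the baseline difference between them (right). Boxes show the quartiles and whiskers the 5th and 95th percentiles of the genes tested, and green points the 34 genes called with the replicate block. The spread narrows with level, and all but one of the points below 0 lie in the bin of genes that were over 4-fold higher in E0771 controls.

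The B16F10 MRTFA libraries, which share the same controls, are given beside the 7 genes that limma called lower with MRTFB in B16F10. With MRTFA, Rhox5 stood at 981, 1228 and 780 scaled reads, Dppa2 at 42.4, 50.7 and 41.01, and B3gnt3 at 13.1, 8.28 and 9.54. Fbxo17 stood at 56.5, 59 and 46.7, and Rhox2d at 156, 137 and 160.2. All these MRTFA values lay below every B16F10 control library of the gene. Jup was at 299, 237 and 317 and Nckap1l at 82.7, 54.8 and 85.8, above every MRTFB library and below every control. Slc7a2, which was high with MRTFB in B16F10, was at 0 in all 3 MRTFA libraries. Because the controls are shared, these values are no second test of the B16F10 response.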

How the data were processed

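RNA from 2 cell lines was sequenced, and 12 of 18 libraries were used, grouped by line and transgene in their labels. Per the submitters' processing notes, the tools were cutadapt 1.6, STAR 2.5.0a, HTSeq 0.5.3 and DESeq, with build mm10; neither annotation release nor strandedness is given in the sources used here. Deposited values are signal: reads of a gene that the authors divided by the library's size factor. Every value divided by the smallest one of its library was whole (tolerance 0.001), which gave back the reads for count tests.

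Genes that reached 10 scaled reads in 3 or more of the 12 libraries were fitted as 4 group means with limma 3.58.1 (trend) on log2(value + 1) in R 4.3.3. Tests are two-sided, with Benjamini-Hochberg adjustment over all 14193 genes and calls at adjusted p under 0.05. Adding 1 understates changes of genes with few reads. Counting intervals are exact binomial at 95%, a count of 0 allows up to 3 reads, and both cover counting error only. No library was a duplicate of another in its group (chi-square over its degrees of freedom, 11.7 to 59.2). Same-numbered MRTFB and control libraries had deviations from group means that correlated across genes, at 0.415, 0.348 and 0.456 in E0771 and 0.339, 0.368 and 0.457 in B16F10; these pairs come from the data, since the labels give a number only, and blocked values stand where they change a call. Alternatives were edgeR 4.0.16 (2 calls for the line difference), DESeq2 1.42.0, voom, other scalings, pseudocounts and filters, all 18 libraries, and leaving out libraries. The scripts were tested on simulated data.

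Identifiers were looked up in GENCODE M21, which held 18827 of 18909. Named genes were fixed anchors of the pathway, called genes by size or p with a group mean of at least 20, those of lowest p up to 8 a direction, and up to 3 per list, leaving out predicted genes. Tpm2, Tnc, Timp1, Nppb, Pdlim5, Lima1, Hmgcs1, Msmo1 and Fdps were added after their values were seen. Members and lists were chosen with earlier results of these data known.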

Additional observations from a re-analysis of the deposited data

Results flagged for a closer look

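The MRTFB effect differed between the lines, by a test of the difference itself in limma, for 3 genes. The line difference (E0771 minus B16F10, log2) was 3.30 for Optc, -4.41 for Slc7a2 and 2.74 for Jup. Optc rose in E0771, whose controls held 3 reads in all, Slc7a2 rose in B16F10, whose controls held 1 read, and Jup fell in B16F10. With the replicate block all 3 were called (adjusted p = 0.0192, 0.02 and 0.0192). Slc7a2 met the minimum level only through the B16F10 MRTFB libraries, in which it was high, and edgeR did not call it (adjusted p = 1), so its difference is given as a value only.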

How the results depend on the processing

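The line difference was called for 3 genes. It was called for 5 with a pseudocount of 5, 0 with a minimum value of 50 (571 at an unadjusted p under 0.05), 17 with all 18 libraries, 29 in DESeq2, 2 in edgeR, 4 in voom, 34 with the replicate block within line, 4 with a block shared over the lines, 116 with the block and a minimum of 10 in each line, 31 without the B16F10 replicate 3 pair and 164 without it and with the block. Leaving out 1 library gave 1 to 29 genes, the highest without B16F10 control replicate 3. The E0771 count of 4 became 8 and 9 with pseudocounts of 0.5 and 5, 18 with all 18 libraries, 1 in edgeR and in voom, 16 in DESeq2, 33 with the block within line, 10 with the shared block, 2 with a minimum of 10 in each line, 65 with that and the block, and 13 and 35 without the B16F10 replicate 3 pair, without and with the block. It ranged over 1 to 10 without 1 library, the highest without E0771 control replicate 3. The B16F10 count of 11 became 38 with a pseudocount of 5, 17 with no filter, 57 with all 18 libraries, 19 in edgeR and in voom, 137 in DESeq2, 220 with the block within line, 29 with the shared block, 319 with a minimum of 10 in each line and the block, and 81 and 500 without the B16F10 replicate 3 pair. It ranged over 1 to 82 without 1 library, the highest without B16F10 control replicate 3. The voom fit, the minimum in each line and the pair left out were chosen after seeing the data. The cause of these moves was not tested. Of the 29 DESeq2 calls 14, and of the 17 with all 18 libraries 10, were among the 34.

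Values that were not called changed sign in 17 results when 1 library was left out. Line differences ranged over -0.08 to 0.27 for Mkl1, -0.18 to 0.47 for Srf, -1.27 to 0.58 for Tagln, -1.12 to 0.72 for Cnn1, -0.07 to 1.34 for Myl9, -1.37 to 0.29 for Acta1, -0.06 to 0.40 for Vcl, -0.03 to 0.14 for Tpm1, -1.40 to 0.08 for Fhl2 and -0.08 to 1.23 for Ctgf. B16F10 effects ranged over -0.33 to 0.06 for Csrp1, -0.05 to 0.17 for Actb, -0.22 to 0.98 for Thbs1, -0.19 to 1.12 for Ctgf, -0.35 to 0.40 for Cyr61 and -0.08 to 0.85 for Fas, and the E0771 effect of Fhl2 over -0.06 to 0.29. Cnn1's line difference was 0.50 with a pseudocount of 5, and the B16F10 effect of Cyr61 was -0.05 without the replicate 3 pair, without and with the block. Median line differences ranged over -0.12 to 0.63 for smooth muscle genes, -0.06 to 0.21 for SRF cofactors and -1.28 to 0.35 for immune markers, and over -0.03 to -0.01 for genes within 2-fold at baseline, where TMM scaling and edgeR gave -0.03. Depth limits genes near silence in 1 line, such as Optc and Slc7a2.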

Other observations

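Further genes of the pathway are given by their values, and none of their line differences was called by limma with or without the block over the 14193 genes. Without the B16F10 replicate 3 pair, the blocked fit called Ankrd1 (adjusted p = 0.0352) and Klf4 (0.0256). Ankrd1, a stretch-responsive muscle protein, had 262, 324 and 508 scaled reads in E0771 MRTFB libraries, against 202, 159 and 301 in E0771 controls, and 20.01, 19.7 and 255 in B16F10 MRTFB libraries, against 2.89, 1.95 and 10.5 in B16F10 controls. Its line difference was -2.53 ± 1.16 (adjusted p with the block 0.0869), and its B16F10 effect of 3.24 was called with the block (0.00444). Fas, a death receptor, had 179, 120 and 137 in E0771 MRTFB libraries, against 41.3, 36.0 and 60.7 in E0771 controls, and under 10 in all B16F10 MRTFB and control libraries. Its line difference of 1.30 ± 0.64 was not called (adjusted p = 0.998, and 0.306 with the block), nor was its E0771 effect of 1.65 (0.716, and 0.132 with the block). Klf4, a zinc finger factor, had an effect of 0.03 in E0771 and of -0.90 in B16F10 (adjusted p with the block 0.0158 in B16F10), with a line difference of 0.93 ± 0.33 (0.0788).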
